A study of Mus musculus with 47 samples.

Results

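Hematopoietic stem and progenitor cells (HSPCs) are represented here by 9 genes that are commonly used to recognise them: the surface molecules Kit, Flt3, Procr, Cd34 and Slamf1 and the transcription factors Meis1, Mecom, Hlf and Myb. The 9 genes were chosen by symbol, and all were found among the 20456 genes of the count table. The values are reads counted per gene in bulk tissue of mouse embryos late in gestation (E18.5). The question was whether the level of these transcripts in the fetal liver differed between embryos with a mutant Daxx protein and their wild-type littermates. Daxx is a chaperone that places the histone variant H3.3 on chromatin together with Atrx.

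S226A embryos were homozygous for a Daxx allele whose protein does not bind H3.3 (Daxx S226A/S226A), and Y130A embryos were homozygous for an allele whose protein does not bind Atrx (Daxx Y130A/Y130A). Each had its own wild-type (WT) littermates from intercrosses of heterozygous mice. Both alleles were made by CRISPR editing of C57BL/6N zygotes and backcrossed to C57BL/6J, every tissue of a mutant embryo carried the mutation, and no drug was given. Liver, lung and brain gave 47 libraries in 12 groups of 4, apart from the WT lungs of the Y130A litters (n = 3). The libraries came from 17 embryos of 8 litters, 4 litters per allele. Libraries of the S226A litters held 15722147 to 26190403 reads on genes and those of the Y130A litters 36351738 to 54885020. Levels are given as CPM, the reads of a gene per 1000000 reads of the library after TMM scaling. The samples of a group were separate embryos.

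In the mouse embryo, the liver is the main site of blood formation until the bone marrow takes over around birth. Hematopoietic stem cells lodge there beside hepatocytes, stromal cells and sinusoidal endothelium, expand, and give rise to progenitors of the erythroid, megakaryocytic, myeloid and lymphoid lineages. They depend on signals such as stem cell factor, which Kit receives, and on a set of transcription factors that keep them from differentiating. None of the 9 genes is restricted to these cells: Cd34, Procr, Mecom and Meis1 are also expressed by endothelial cells, Kit by mast cells, Myb by dividing progenitors of most lineages, and Hlf by hepatocytes. In bulk RNA, fewer cells of a type and less RNA per cell cannot be told apart.

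Of the 9 genes, 1 passed the test in S226A liver (edgeR quasi-likelihood test, adjusted p below 0.05), where 11.7% of all 16892 genes tested did: Cd34, which was 1.36-fold higher. The share of members called was thus near that of all genes. In Y130A liver 0 of the 9 passed (0 at an unadjusted p below 0.05), against 0.272% of all genes. In lung, 0 of 9 passed for S226A (2 unadjusted, Flt3 and Hlf) against 1.88% of all genes, and 0 of 9 for Y130A (1 unadjusted, Slamf1) against 0.0178%. In brain, 0 of 9 passed for S226A (0 unadjusted) against 0.243%, and 0 of 9 for Y130A (0 unadjusted) against 0.00592%. DESeq2 called 0 members in each of these 6 comparisons, Cd34 included. The promoters of Cd34, the gene that passed, and of Myb, the only other gene whose mutant and WT libraries did not overlap in S226A liver, are shown first. The sequences are those of RefSeq (GRCm38.p6), from 250 to 11 bases before the start of transcription, 5′ to 3′ on the strand of the gene. Cd34 lies at chr1:194938571-194938810 on the plus strand and Myb at chr10:21160995-21161234 on the minus strand.
Cd34: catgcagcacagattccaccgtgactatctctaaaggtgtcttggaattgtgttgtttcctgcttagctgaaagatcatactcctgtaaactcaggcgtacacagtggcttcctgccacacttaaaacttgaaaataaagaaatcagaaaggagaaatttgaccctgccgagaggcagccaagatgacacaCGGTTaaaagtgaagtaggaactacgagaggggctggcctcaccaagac
Myb: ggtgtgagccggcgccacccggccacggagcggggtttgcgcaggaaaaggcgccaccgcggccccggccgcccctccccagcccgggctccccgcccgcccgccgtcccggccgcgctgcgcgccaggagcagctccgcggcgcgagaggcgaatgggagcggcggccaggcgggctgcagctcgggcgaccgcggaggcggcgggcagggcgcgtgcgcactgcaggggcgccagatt
Capitals mark the letters AACNG on either strand, the core that Myb binds, which occurred 1 time in the Cd34 window, 59 bases before the start, and 0 times in the Myb window. This short motif was present in 72.8% of all 32851 promoter windows of the same length, and in the windows of 7 of the 9 genes. The letters AGATAA of GATA factors, present in 9.74% of all windows, and TTACNTAA of the PAR bZIP family to which Hlf belongs, present in 2.03%, were found in none of the 9 genes. The letters TGACAG of Meis factors, in 15.3% of all windows, were found for 1 gene (Mecom, at 1 of its start sites), and CGGAAG of ETS factors, in 12.7%, for 2 genes (Procr and Mecom). All were searched on both strands. The windows differed in base composition, with 45.8% G and C for Cd34 and 81.2% for Myb against a median of 52.1% over all windows. Kit and Myb held 0 matches to any of these letters.

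The label of the livers was checked against hepatocyte genes. The summed level of 7 hepatocyte markers, Alb and Afp among them, was 142993 to 211072 CPM in the 16 livers and at most 1226 CPM in any lung or brain. The mutated gene itself gives no check of genotype, since both alleles leave it in place: Daxx was at 27.2 to 50.9 CPM over all libraries, with a log2 fold change from -0.12 to 0.04 in the 6 comparisons of mutant and WT. This holds for RNA only. For Daxx protein, the paper reports more in Y130A and less in S226A than in WT, most clearly in embryonic fibroblasts. It also describes a faint ATRX band with Y130A in some binding assays. Transcripts of squamous epithelium stood out in 2 livers. The summed CPM (without TMM) of 8 such genes was 889.9 in WT replicate 2 of the S226A litters and 531.3 in Y130A replicate 1, against at most 6.89 in the other livers. The fold changes of all 9 genes in liver are also given without these 2 livers.

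Among the surface molecules, Cd34 is a sialomucin of stem and progenitor cells and of endothelium (chromosome 1, 194938819 to 194961279). In S226A liver it had 20.1, 22.8, 19.2 and 18.4 CPM in the 4 mutants and 15.1, 18.1, 12.7 and 13.7 CPM in their WT littermates. All mutants thus lay above all WT livers, and the mutant had the higher value in 4 of 4 litters, by 1.26 to 1.52 times. The log2 fold change was 0.44 ± 0.13 (SE; 95% interval 0.18 to 0.70), which is 1.36-fold (1.13 to 1.62), with an adjusted p of 0.0177 (edgeR). Without the WT liver with squamous transcripts it was 0.55 (adjusted p = 0.00536). Libraries that did not overlap were found for 2 of the 9 members, Cd34 and Myb, against 11.9% of all genes. In the Y130A litters, Cd34 was at 17.4, 18.1, 23.4 and 20.6 CPM in mutant livers and at 25.8, 15.7, 13.6 and 18.6 CPM in WT livers, which overlapped widely. The WT livers of the Y130A litters therefore spanned the whole range of the S226A mutants. In Y130A liver the log2 fold change of Cd34 was 0.10 ± 0.12 (interval -0.13 to 0.34), and the difference between the 2 mutants, 0.33 ± 0.17, did not pass the test (adjusted p = 0.304, edgeR). Both values depended on WT replicate 1 of the Y130A litters, the liver with 25.8 CPM, without which they were 0.32 (adjusted p = 0.178) and 0.12 (adjusted p = 0.757). Over all libraries left out in turn they ran from -0.02 to 0.32 and from 0.12 to 0.45, and neither was called.

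The call of Cd34 depended on the fit. Its log2 fold change was 0.44 also with DESeq2, 0.45 with only the 8 libraries compared and 0.44 with the 16 livers alone, but the adjusted p was then 0.0731, 0.0657 and 0.115. The standard error was 0.16, 0.14 and 0.16 in these fits. It was 0.13 in the main fit, which estimated the spread from all 47 libraries, lungs and brains included. The call was also lost on leaving out WT replicate 3 (0.0767), WT replicate 4 (0.0580) or S226A replicate 2 (0.0766), with log2 fold changes of 0.37, 0.40 and 0.37.

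The genes of other cells that express Cd34 or Kit were read beside them. Of 11 endothelial markers, 0 were higher and 2 lower in S226A liver, Cdh5 (log2 fold change -0.46 ± 0.12, adjusted p = 0.00697, edgeR) and Pecam1 (-0.34 ± 0.11, adjusted p = 0.0364), both junction proteins of vessel walls. At an unadjusted p under 0.05 there were 6, and DESeq2 called 2, while edgeR called 11.7% of all genes. Of the other 9, 2 had values above 0, Emcn (0.31, interval 0.01 to 0.60, not called, 6.02 against 4.84 CPM) and Cldn5 (0.003). The summed level of the 11 markers was 670 to 859 CPM in the 4 mutant livers and 954 to 1049 CPM in the WT livers, without overlap. Of 9 mast cell genes, Fcer1a and Mrgprb1 had 0 reads in all 16 livers, and Tpsab1 had 0 reads in the livers of the S226A litters. Fcer1a and Mrgprb1 also had 0 reads in the Y130A lungs, where the 9 genes summed to 48.4 to 67.9 CPM. Their lack of reads therefore does not measure how many mast cells a tissue held. The 9 listed genes summed to 28.6 to 43.5 CPM in S226A and 18.3 to 24.1 CPM in WT livers. Hdc, the histidine decarboxylase that mast cells and granulocyte precursors share, made up most of this sum, and it was the 1 gene of 7 tested that rose (0.88 ± 0.20, adjusted p = 0.00143). The part of any of these cells in the level of Cd34 was not tested.

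**Figure D1:**
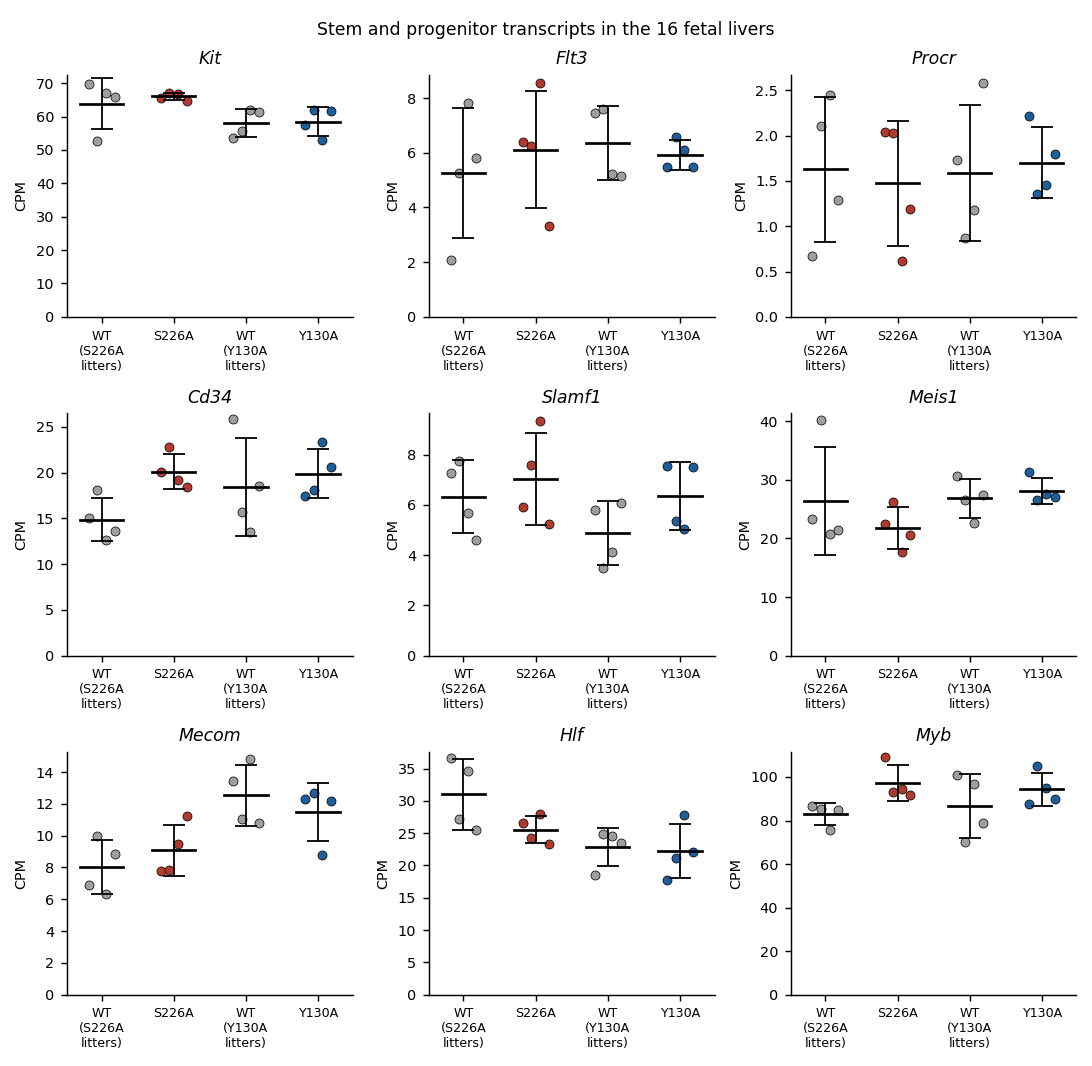
Level in CPM of the 9 genes in each of the 16 livers, with points for libraries (red S226A, blue Y130A, grey WT) and bars for mean ± SD (n = 4). Cd34 and Myb were the genes whose 4 S226A livers all lay above their 4 WT livers, while the WT livers of the Y130A litters spread over the S226A values of both genes but for the highest Myb value.

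Kit, the receptor of stem cell factor (chromosome 5, 75574916 to 75656722), was at 52.6 to 69.9 CPM over the 16 livers. S226A livers had 65.7, 67.1, 66.7 and 64.8 CPM, and WT littermates had 69.9, 52.6, 67.2 and 66.0 CPM. The value of 52.6 belonged to the WT liver with squamous transcripts, and the others lay within a few CPM of each other. The log2 fold change was 0.05 ± 0.10 in S226A (interval -0.15 to 0.25) and 0.01 ± 0.10 in Y130A (-0.19 to 0.21), so that the interval in S226A liver ran from 0.899 to 1.19 of the WT level. Without the liver with squamous transcripts the S226A value was -0.04. In the Y130A litters, Kit was at 52.9 to 61.9 CPM in mutants and 53.4 to 62.0 CPM in WT.

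The other surface molecules were scarce and less precisely measured. Flt3, the receptor of the Flt3 ligand on multipotent and lymphoid progenitors, had 6.39, 6.24, 8.54 and 3.32 CPM in S226A livers and 2.09, 5.26, 7.83 and 5.82 CPM in WT. Slamf1 (CD150), which separates long-term stem cells from more mature progenitors, had 5.93, 7.58, 9.34 and 5.24 CPM against 7.25, 7.75, 5.68 and 4.597 CPM. Procr, the endothelial protein C receptor (EPCR) found on the most quiescent stem cells, had 2.04, 2.03, 0.619 and 1.19 CPM against 0.676, 2.10, 2.44 and 1.29 CPM, from 10 to 44 reads per library. For each of these genes the groups overlapped. The log2 fold changes in S226A liver were 0.22 for Flt3 (interval -0.60 to 1.05), 0.15 for Slamf1 (-0.66 to 0.96) and -0.13 for Procr (-0.85 to 0.60). As ratios to WT, the intervals ran from 0.658 to 2.08 for Flt3, 0.634 to 1.95 for Slamf1 and 0.555 to 1.52 for Procr. In Y130A liver the values were -0.11 for Flt3 (-0.91 to 0.70), 0.38 for Slamf1 (-0.42 to 1.18) and 0.10 for Procr (-0.57 to 0.77).

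Among the transcription factors, Myb had the highest level. Myb (chromosome 10, 21124935 to 21160984) maintains the proliferation of progenitors and is switched off as they mature. S226A livers had 109.4, 92.9, 94.4 and 91.8 CPM and WT littermates 86.5, 85.2, 75.6 and 84.6 CPM. The groups did not overlap, and the mutant was higher in 4 of 4 litters, by 1.085 to 1.27 times. The log2 fold change of 0.23 ± 0.12 (interval -0.01 to 0.47) did not pass the test (adjusted p = 0.232, edgeR). In the Y130A litters, Myb was at 87.5, 104.9, 95.04 and 89.7 CPM in mutants and at 101.1, 70.2, 96.7 and 79.1 CPM in WT, with a log2 fold change of 0.12 ± 0.12 (-0.12 to 0.36). Of 8 proliferation genes, 0 passed the test in either mutant liver, with a median log2 fold change of 0.04 in S226A and 0.05 in Y130A. At an unadjusted p below 0.05 there were 0 in either liver, and DESeq2 called 1 in S226A and 0 in Y130A liver.

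Hlf, a PAR bZIP factor of long-term stem cells, had 26.6, 24.2, 27.9 and 23.4 CPM in S226A livers and 36.6, 27.2, 34.7 and 25.6 CPM in WT. The groups overlapped, but the mutant was lower in 4 of 4 litters (0.727 to 0.914 of WT). Its log2 fold change of -0.28 ± 0.14 (interval -0.57 to 0.003) did not pass the test (adjusted p = 0.209, edgeR). In Y130A liver, Hlf was at -0.04 ± 0.14 (-0.32 to 0.24). Since hepatocytes also express Hlf, the 7 hepatocyte markers are given beside it: 0 passed the test in S226A liver (0 at an unadjusted p below 0.05, and 1 by DESeq2), and their sum was 142993 to 167297 CPM in S226A and 171199 to 176243 CPM in WT, without overlap. Their part in the level of Hlf was not tested.

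Meis1, a homeobox partner of Hox proteins, had 22.5, 26.3, 17.6 and 20.6 CPM in S226A livers and 23.3, 40.2, 20.8 and 21.4 CPM in WT. The WT value of 40.2 was again from the liver with squamous transcripts. The log2 fold change was -0.28 ± 0.20 with this liver (interval -0.69 to 0.14) and -0.002 without it, when its S226A littermate, the highest of the mutants, was kept. Within litters the mutant was lower in 4 of 4, with ratios of mutant to WT of 0.962, 0.655, 0.849 and 0.965, of which 0.655 was from the litter of this liver. Mecom, which encodes Evi1, had 7.77, 7.85, 9.47 and 11.2 CPM in S226A livers and 6.88, 9.99, 6.32 and 8.83 CPM in WT, with a log2 fold change of 0.17 ± 0.17 (-0.17 to 0.52). In Y130A liver the values were 0.07 ± 0.19 for Meis1 (-0.32 to 0.46) and -0.12 ± 0.15 for Mecom (-0.43 to 0.18).

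As a list, the 9 genes had a median log2 fold change of 0.15 in S226A liver, where the median of all genes was -0.01, and 6 of the 9 estimates were above 0. In Y130A liver the median was 0.07 with 6 of 9 above 0. In Y130A liver, 0 of 9 members had libraries that did not overlap, against 2.35% of all genes. Without the 2 livers with squamous transcripts, the log2 fold changes in S226A liver were -0.04 for Kit, 0.23 for Flt3, 0.03 for Procr, 0.55 for Cd34, 0.27 for Slamf1, -0.002 for Meis1, 0.30 for Mecom, -0.34 for Hlf and 0.24 for Myb. In Y130A liver they were 0.02 for Kit, -0.07 for Flt3, -0.06 for Procr, 0.16 for Cd34, 0.29 for Slamf1, 0.01 for Meis1, -0.16 for Mecom, 0.05 for Hlf and 0.15 for Myb. Cd34 in S226A liver was again the 1 value called, while Kit and Procr changed sign in S226A liver and Procr and Hlf in Y130A liver, all of them uncalled. Between the mutants, 0 of 9 differences of effect were called (0 at an unadjusted p below 0.05, 0 by DESeq2), against 5.9% of all genes.

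**Figure D2:**
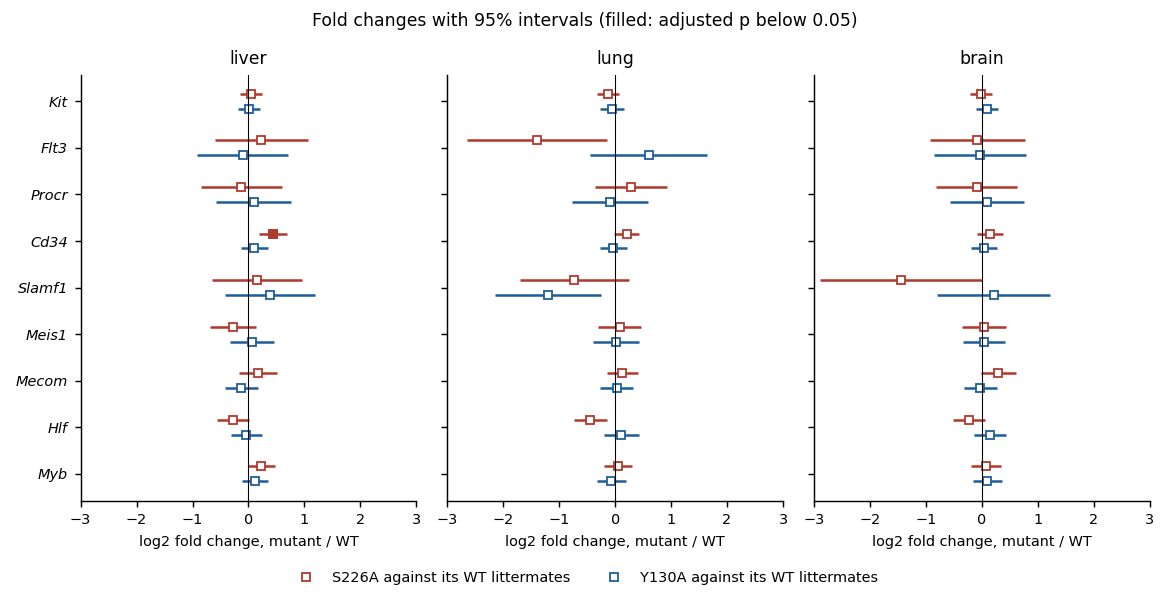
Log2 fold change of each gene between mutant and WT littermates in liver, lung and brain (squares, S226A red and Y130A blue; lines, 95% intervals; filled squares, adjusted p below 0.05). The filled square of Cd34 in S226A liver, at 0.44, is the only one, and the widest intervals belong to Flt3, Slamf1 and Procr, which had the fewest reads.

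In the lungs and brains the 9 genes passed no test of mutant against WT. Hlf was the nearest in S226A lung, with 9.24, 8.76, 10.7 and 7.07 CPM against 12.1, 10.3, 15.3 and 10.9 CPM in WT. The mutant was lower in 4 of 4 litters although the ranges overlapped. The log2 fold change was -0.44 ± 0.15 (interval -0.74 to -0.15) with an adjusted p of 0.106 (edgeR). With litter as a replicate block the value was -0.44 with an adjusted p of 0.0465, and without WT replicate 2 it was -0.52 with 0.0307, so both of these fits called it. Both also called more of all genes in S226A lung, 612 of 16892 and 1423 of 17036, against 317 of 16892 in the main fit. Hlf was also the 1 of 9 members whose libraries did not overlap in S226A brain (8.43 to 10.4 CPM against 10.7 to 12.3 CPM in WT), where 2.48% of all genes did not overlap. Its log2 fold change there was -0.23 ± 0.14 (-0.52 to 0.06). In Y130A lung and brain, the estimates for Hlf were 0.11 ± 0.15 and 0.15 ± 0.14. The WT sets differed as well. Hlf was at 6.29 to 6.62 CPM in the WT lungs of the Y130A litters, below every lung of the S226A litters, mutant or WT. In the WT brains of the Y130A litters it was at 7.6 to 9.3 CPM, below every WT brain of the S226A litters. These differences between the WT sets were not tested in lung or brain. The S226A effect on Hlf in liver less that in lung was 0.16 ± 0.20, and the difference did not pass the test (adjusted p = 0.721, edgeR).

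Cd34 in S226A lung was at 308 to 365 CPM against 267 to 336 CPM in WT, a log2 fold change of 0.20 ± 0.11 (-0.02 to 0.43) that was not called. Flt3 in lung rested on 0 to 16 reads per library in the S226A litters, and its estimate of -1.40 had an interval from -2.66 to -0.15 (adjusted p = 0.245, edgeR). With 1 library left out, this estimate ran from -2.24 to -0.96 and was never called. Slamf1 in lung had 2 to 21 reads in the S226A litters and 8 to 49 in the Y130A litters, and its log2 fold change in Y130A lung was -1.20 ± 0.47 (adjusted p = 1, edgeR). In S226A brain Slamf1 had 0 to 3 reads per library against 1 to 12 in WT, and no fold is given. The S226A effect in liver differed from that in lung for 0 of 9 members (1 unadjusted, Flt3, and 0 by DESeq2), against 6.9% of all genes, and from that in brain for 0 of 9 (0 unadjusted, 0 by DESeq2), against 3.71%.

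The levels of the 9 genes were compared per kilobase of exon, since longer transcripts give more reads. In the 8 WT livers, Myb was highest at 9.50 ± 1.15 CPM per kb (SD), followed by Kit at 6.84 ± 0.735 and Hlf at 4.03 ± 0.891. Meis1 (2.53 ± 0.610) and Cd34 (2.28 ± 0.585) followed and overlapped each other in both sets of WT livers, and Hlf overlapped Meis1 in the WT livers of the Y130A litters. Flt3 (0.940 ± 0.306), Slamf1 (0.909 ± 0.240), Mecom (0.826 ± 0.238) and Procr (0.791 ± 0.353) formed the lowest group, within which each neighbour in the order of either set overlapped the next. Per kilobase of coding sequence, Hlf stood above Kit in every liver group, and the order within the lowest group also changed. In S226A liver, Cd34 (2.76 ± 0.262, n = 4) was above Meis1 (2.07 ± 0.343), the reverse of their order in WT, and their libraries did not overlap there. The means had the same order in Y130A liver (2.73 for Cd34 and 2.67 for Meis1), where the libraries overlapped, but the order of these means turned per kilobase of coding sequence (17.2 and 17.8).

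The WT tissues were compared next. Relative to WT lung, WT liver was higher for 4 of 9 genes, against 37.8% of all genes tested, and lower for 5 of 9, against 42.3%. Those higher in liver were Flt3 (15.7-fold, interval 9.38 to 26.2, from 1 to 25 reads in each WT lung library), Slamf1 (6.65-fold), Myb (3.20-fold) and Hlf (3.00-fold). Those lower were Cd34, which was 19.8-fold higher in lung than in liver, Mecom (18.1-fold higher in lung), Meis1 (4.87-fold), Procr (3.48-fold) and Kit (1.83-fold). The 4 genes most reduced in liver against lung are those that endothelial cells also express. The 11 endothelial markers summed to 2210 to 2758 CPM in WT lungs against 954 to 1173 CPM in WT livers, but 3 were higher in liver and 8 lower (edgeR). In WT brains the 11 markers summed to 264 to 303 CPM, below the livers, although Cd34 and Meis1 were higher in brain than in liver. The part of endothelial cells in these differences was not tested.

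Relative to WT brain, 4 of 9 genes were higher in liver, against 41.8% of all genes, and 3 of 9 were lower, against 45.5%. Slamf1 was 29.6-fold, Myb 14.5-fold, Flt3 2.87-fold and Hlf 2.69-fold higher in liver. Cd34 was 1.63-fold, Meis1 1.92-fold and Kit 1.20-fold higher in brain. Procr (log2 fold change 0.46, interval -0.03 to 0.95) and Mecom (0.04, -0.18 to 0.27) were not called. Procr was called without WT replicate 1 of the S226A litters (0.59, adjusted p = 0.0205, edgeR) or WT replicate 2 of the Y130A litters (0.56, adjusted p = 0.0310). Slamf1 was close to its limit of detection in brain, with 1 to 15 reads in each WT library. Myb, Flt3, Slamf1 and Hlf were thus the members higher in WT liver than in both other tissues.

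**Figure D3:**
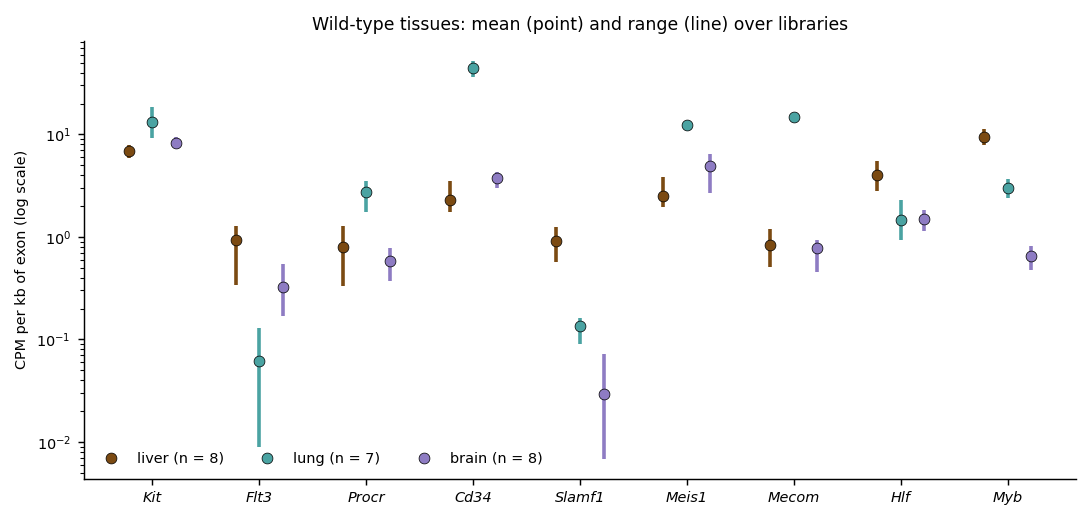
Mean level (points) and range over libraries (lines) of the 9 genes in WT liver, lung and brain, in CPM per kb of exon on a log axis, both sets of WT libraries together. The mean of liver is above those of lung and brain for Flt3, Slamf1, Hlf and Myb, and the mean of lung is above both others for Kit, Procr, Cd34, Meis1 and Mecom; the ranges overlap with those of brain for Flt3 in liver and for Kit in lung.

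The 2 sets of WT livers show how far these genes vary without a mutation. Mecom was at 8.004 ± 1.70 CPM in the WT livers of the S226A litters and 12.5 ± 1.94 CPM in those of the Y130A litters (log2 difference -0.64 ± 0.16, adjusted p = 0.00701, edgeR). This call was lost with DESeq2 (adjusted p = 0.0598), with only the libraries compared (0.0844) and with the 16 livers alone (0.0593). Hlf was at 31.0 ± 5.45 and 22.8 ± 2.90 CPM (0.44 ± 0.14, adjusted p = 0.0313). The call of Hlf was lost without WT replicate 1 or 3 of the S226A litters or WT replicate 1 or 4 of the Y130A litters, with adjusted p from 0.0622 to 0.126, with only the libraries compared (0.0862), with the 16 livers alone (0.0707) and with the Y130A litters thinned (0.0516). These 2 of 9 members compare with 13.1% of all genes, which were 2209 calls. The calls ran from 1174 to 2885 when 1 library was left out, and were 510 with only the libraries compared. Of the 2209 genes called between the sets, 670 were higher in the S226A litters, and with RLE scaling 930 of 1814, so the direction of this background depended on scaling. Cd34 was lower in the WT livers of the S226A litters by 0.31 ± 0.12 on the log2 scale (adjusted p = 0.0875), a difference that was called when the liver with squamous transcripts was left out (-0.42, adjusted p = 0.0293) or WT replicate 3 of the Y130A litters was (-0.43, adjusted p = 0.0118). Without WT replicate 1 of the Y130A litters it was -0.10 (adjusted p = 0.628). The 2 sets differ in parents, litters and depth of sequencing, which cannot be told apart here.

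The signals that HSPCs receive were examined through 5 genes: Kitl (stem cell factor), Flt3l, Thpo, Cxcl12 and Angpt1. Of these, 0 passed the test in either mutant liver (2 in S226A and 1 in Y130A at an unadjusted p below 0.05, 0 in both by DESeq2). Kitl had the lowest adjusted p in S226A liver, 19.8 ± 2.18 CPM against 24.7 ± 2.34 CPM in WT, with a log2 fold change of -0.32 ± 0.12 and an adjusted p of 0.0733 (edgeR). Its ranges did not overlap. In Y130A liver, Kitl was at 27.8 ± 3.05 and 26.7 ± 2.94 CPM. The median of the 5 genes was -0.28 in S226A and 0.06 in Y130A liver.

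Of 9 other surface genes used to sort HSPCs, 3 rose in S226A liver and 0 fell, with a median log2 fold change of 0.61. Of all genes, 11.7% were called there in either direction. Cxcr4, the receptor of Cxcl12 that retains stem cells and also immature neutrophils in their niche, was at 68.4 ± 6.15 CPM against 36.0 ± 2.85 CPM in WT (0.93 ± 0.11, adjusted p = 2.1e-08, edgeR). Ptprc (CD45), which all leukocytes carry, was at 174.9 ± 14.2 against 106.4 ± 4.31 CPM (0.72 ± 0.14, adjusted p = 0.000405). Ly6a (Sca-1), found on stem cells and also on endothelium and activated leukocytes, was at 6.89 ± 4.601 against 2.05 ± 0.475 CPM (1.77 ± 0.41, adjusted p = 0.00253). Cd48, a marker of more mature progenitors and leukocytes, had 11.01 ± 2.16 and 7.23 ± 0.483 CPM with an adjusted p of 0.0865. In Y130A liver, 0 of the 9 passed the test (0 unadjusted, 0 by DESeq2, median 0.05), and Cxcr4 was at 37.8 ± 3.87 against 36.7 ± 5.89 CPM.

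Of 16 other transcription factors of stem and progenitor cells, 3 rose and 1 fell in S226A liver, against 11.7% of all genes called, with a median of 0.07. Spi1 (PU.1), the factor that directs progenitors to myeloid fates, was at 41.6 ± 3.27 CPM against 22.6 ± 3.15 CPM in WT (0.88 ± 0.17, adjusted p = 0.000209, edgeR). Gfi1, required for neutrophil differentiation, was at 21.9 ± 2.92 against 9.01 ± 2.83 CPM (1.28 ± 0.33, adjusted p = 0.00635), and Etv6 at 63.0 ± 4.69 against 45.0 ± 5.56 CPM (0.49 ± 0.11, adjusted p = 0.00143). Tal1, which serves stem cells and the erythroid and megakaryocytic lineages, fell from 218.6 ± 25.2 to 172.7 ± 22.4 CPM (-0.34 ± 0.10, adjusted p = 0.0183). In Y130A liver, 0 of the 16 passed (1 unadjusted, 0 by DESeq2, median -0.01). Of 7 Hox and Pbx genes tested as partners of Meis1, 0 passed in either liver (1 in S226A and 0 in Y130A unadjusted, 0 in both by DESeq2), and Hoxa10 did not pass the filter on low counts.

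Of 6 genes of the fetal stem cell program, which includes Lin28b and Hmga2, 0 rose and 1 fell in both mutant livers. Of all genes, 11.7% were called in S226A and 0.272% in Y130A liver. The 1 gene that fell was Igf2bp2, an RNA-binding protein and target of Hmga2. It was at 23.4 ± 2.44 CPM in S226A and 32.2 ± 2.61 CPM in WT livers (-0.46 ± 0.10, adjusted p = 0.00178, edgeR). In the Y130A litters it was at 29.7 ± 2.62 and 41.0 ± 5.41 CPM (-0.46 ± 0.10, adjusted p = 0.0252), and in both sets the mutant libraries lay below all WT libraries. DESeq2 called it in S226A but not in Y130A liver. The other 5 genes did not pass the test in either liver, and Hmga2 was at 4.498 ± 1.62 against 4.23 ± 1.80 CPM in S226A and 3.69 ± 0.525 against 5.76 ± 1.78 CPM in Y130A.

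Genes of cells that arise from HSPCs were counted in the same way. In S226A liver, 6 of 6 granulocyte precursor genes rose (median log2 fold change 1.51), among them Prtn3 (1.37 ± 0.17, adjusted p = 1.65e-07, edgeR), and 8 of 8 neutrophil genes rose (median 1.32), among them Lcn2 (1.49 ± 0.13, adjusted p = 1.38e-11). Of 11 B precursor genes, 5 fell and 0 rose (median -0.80), with Ebf1 at -0.87 ± 0.17 (adjusted p = 0.000295) and Il7r at -1.35 ± 0.32 (adjusted p = 0.00291). Of 6 dendritic cell genes tested, 3 fell (median -0.81), and of 9 macrophage genes 8 fell (median -2.79). Of 9 erythroid genes, 0 were called by edgeR (1 unadjusted, median -0.28), but DESeq2 called 5, all of them lower. Of 7 megakaryocyte genes, 0 were called (0 unadjusted, 0 by DESeq2, median -0.13). In Y130A liver, 0 genes of these 7 lists were called by either tool, and 1 megakaryocyte gene had an unadjusted p below 0.05. Their medians ranged from -0.32 for the dendritic cell genes to 0.20 for the megakaryocyte genes. These counts describe lists chosen with earlier results known and are not independent evidence of a direction.

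**Figure D4:**
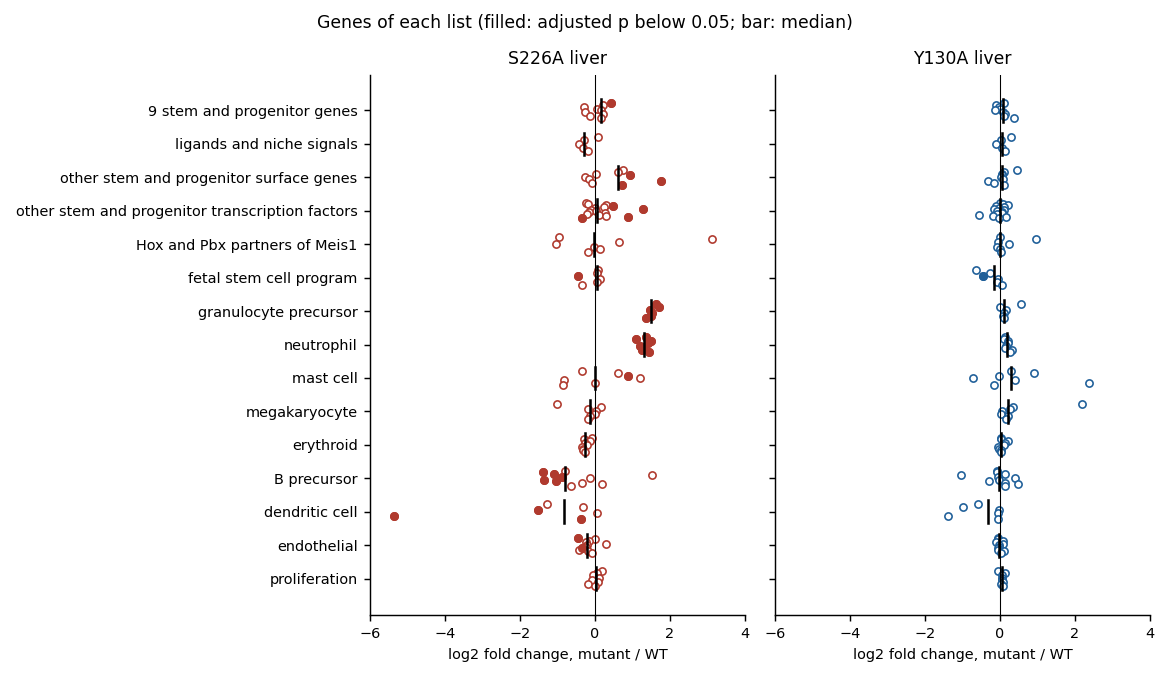
Log2 fold change of the genes of each list in S226A (red) and Y130A (blue) liver against WT littermates; points are genes, filled where the adjusted p was below 0.05, and the bar is the median of the list. The 9 stem and progenitor genes range from -0.28 to 0.44 in S226A and from -0.12 to 0.38 in Y130A liver, with medians of 0.15 and 0.07, while the medians of granulocyte precursor and neutrophil genes are 1.51 and 1.32 in S226A liver.

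The genes whose pattern over the 12 groups was most like that of each member were found by the root mean square difference of centred mean log2(CPM + 1), a description with no test. For Kit these were Cep295nl, Dytn and Dyrk1b, with 0.081 for the first. For Flt3 they were Tstd3, Lgr4 and Scap (0.15), for Procr Rhoc, Mpp5 and Snx7 (0.098), and for Cd34 Prcd, Cav2 and Timp3 (0.12). For Slamf1 they were Lat, Aunip and Aldh4a1 (0.15), and for Meis1 Cfap58, Akap12 and Rras2 (0.11). For Mecom they were Npnt, Srpx2 and Cryab (0.15), for Hlf Ulk1, Slc36a1 and Rnf10 (0.090), and for Myb Baz1a, Slc16a12 and Rab17 (0.10). The spread of the members' own profiles over the groups ranged from 0.38 for Kit to 1.93 for Mecom on the same scale, and 0 of the 9 members were among the 3 genes most like another member.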

How the data were processed

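RNA of 47 samples (liver, lung and brain, E18.5) was sequenced by the authors, who aligned the reads with STAR 2.6.0b to GRCm38.p6 and counted them on GENCODE M19 genes. The deposited values are raw read counts per gene. The labels give group and litter, and the strand setting is not given in the sources used here. Cd34, Mecom, Flt3, Myb and Meis1 overlap antisense genes that have no row in the table, so without strand their reads cannot be told apart.

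Counts were TMM-scaled and fitted with edgeR 4.0.16 (R 4.3.3) over all libraries, with 1 coefficient per group, after filterByExpr (minimum count 10, total 15), which kept 16892 of 20456 genes and all 9 members. Quasi-likelihood p-values were adjusted over all of them by the Benjamini-Hochberg method, and adjusted p below 0.05 was a call. The standard error is the size of the log2 fold change over the square root of F, and 95% intervals use the fit's degrees of freedom. The fit was tested on simulated data. Positions and lengths are from GENCODE M21 (GRCm38), matched by gene identifier. The SD values are over the embryos of a group. Standard errors and intervals use a spread estimated from all 47 libraries. The 47 libraries came from 17 embryos, and the fit treated the tissues of an embryo as independent. Comparisons between tissues were thus not paired by embryo. Read counts are not identified molecules.

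The litter number comes from the sample titles and, per the study's description, mutants and WT were littermates. Residuals of littermates correlated above 0.1 in 12 of 23 pairs and those of other pairs in 4 of 69. In liver these were 1 of 4 littermate pairs for S226A and 1 of 4 for Y130A. The S226A lungs had 3 of 4 and brains 0 of 4, and the Y130A lungs 3 of 3 and brains 4 of 4. Litter was therefore fitted as a replicate block as an alternative. Beside the one value given for Hlf in S226A lung, it changed no call of a member in the comparisons where it could be fitted (not between the 2 sets of WT livers). Other alternatives were DESeq2 1.42.0, RLE size factors, no filter on low counts, only the libraries compared, the 16 livers alone, stringent criteria (adjusted p below 0.01, log2 fold change beyond 1, standard error below 1), the Y130A litters thinned to a median total of 20341531, no livers with squamous transcripts, CPM without TMM, and each library left out in turn.

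The members and lists were chosen with earlier results of these data known. Named genes are all 9 members and, of each list, up to 4 genes with the lowest adjusted p in S226A and then Y130A liver. Others were named for another reason: mast cell genes with 0 reads, the endothelial markers above 0, Hoxa10 for its filter, and genes that tell what a list holds. Of the 69 pairs of replicates, 0 agreed within sampling noise (lowest chi-square per degree of freedom 4.17).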

Additional observations from a re-analysis of the deposited data

Results flagged for a closer look

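In groups of 4 libraries, a value was looked at again where its gap to the nearest other was above 0.829 of the range of the group, which chance gives for about 1 in 20 groups. Of 99 groups of 4 values for the 9 genes, 8 held such a value. In liver, Meis1 was at 40.2 CPM in WT replicate 2 of the S226A litters against 20.8 to 23.3 CPM in the others, and this is the liver with squamous transcripts. Mecom was at 8.79 CPM in Y130A replicate 3, against 12.2 to 12.7 CPM. Myb was at 109.4 CPM in S226A replicate 1, against 91.8 to 94.4 CPM, so the mutants remained above all WT livers without it.

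In brain, Kit was at 81.7 CPM in Y130A replicate 1 (others 69.1 to 70.4 CPM) and Flt3 at 1.24 CPM in S226A replicate 4 (others 2.27 to 2.47 CPM). Procr was at 0.749 CPM in WT replicate 2 of the S226A litters (others 1.05 to 1.11 CPM). Cd34 was at 21.9 CPM in WT replicate 4 of the S226A litters (others 24.7 to 25.2 CPM) and at 31.6 CPM in WT replicate 3 of the Y130A litters (others 29.7 to 29.8 CPM). The effects of the 2 mutants, and of S226A in liver against lung or brain, passed the test of their difference for 0 of the 9 genes.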

How the results depend on the processing

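Of 2095 values of single members under an alternative, 2065 stayed on the same side of the threshold, 23 lost and 7 gained a call, and 0 called values changed sign. Values that were called in neither fit changed sign in 104 cases, 103 of them by less than 1 standard error. The 1 member called in S226A liver fell to 0 with DESeq2, with only the libraries compared, with the 16 livers alone and under the stringent criteria, and leaving out libraries gave 0 to 1. In S226A lung, the 0 called members became 1 with litter as a replicate block, and leaving out libraries gave 0 to 1. For WT liver against brain, the 7 called members became 4 under the stringent criteria, and for the WT livers of the 2 sets the 2 called became 0 under these, 1 with DESeq2, 0 with only the libraries compared, 0 with the 16 livers alone and 1 with the Y130A set thinned, and leaving out libraries gave 1 to 3. The cause was not tested. The stringent criteria require a log2 fold change beyond 1, fits of fewer libraries have fewer degrees of freedom, and thinning removes reads. For Cd34 in S226A liver the estimated standard error also differed. It was 0.13 in the main fit, 0.14 with only the libraries compared and 0.16 with the 16 livers alone.

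The litter block changed no other call of a member in the 11 comparisons it was fitted for, which leave out that of the 2 sets of WT livers, whose litters differ. In S226A liver, 1 member was called with it. Over all genes, the 1972 calls in S226A liver were 355 under the stringent criteria, 1130 with only the libraries compared and 1258 with the 16 livers alone. The 317 calls in S226A lung (1.88% of all genes) ran from 135 to 1423 when 1 library was left out. Without TMM, 66 of 108 group levels moved by over 1 SD, while the members that did not overlap stayed at 2 in S226A liver. In liver, the intervals of Procr, Flt3 and Slamf1 allow changes of over 1.5-fold in both mutants, with standard errors of 0.332, 0.400 and 0.396 in Y130A and 0.359, 0.411 and 0.401 in S226A, and of 0.377, 0.406 and 0.400 in Y130A after thinning.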
